A study of Mus musculus with 6 samples.

Results

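Genes that make heme, break it down or carry it and hemoglobin away were compared between livers of alkaline sphingomyelinase knockout and wildtype mice. They are Alas1, Alad, Fech, Hmox1, Blvra, Blvrb, Hp, Hpx and Cd163, taken by symbol: 9 of the 23415 genes of the deposited table, and all 9 among the 11515 genes that the authors tested. The series holds 6 liver RNA samples of C57BL/6 mice, 3 whose names begin with K and 3 whose names begin with W, read here as knockout and wildtype. Both groups share the strain and tissue labels. Age, sex, treatment, time of day at harvest and the make of the knockout allele are not given in the sources used here. Each gene has 1 deposited value per group and none per mouse, taken as FPKM (fragments scaled for transcript length and sequencing depth) from the layout of the table, so the groups cannot be checked for overlap. Enpp7, the targeted gene, was near the floor in both, at 0.141 FPKM for knockout and 0.0541 FPKM for wildtype livers, and so does not check the labels.

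Heme is the iron porphyrin of hemoglobin, cytochromes P450, catalase and the respiratory chain. Its synthesis starts and ends in the mitochondrion, and in the liver ALAS1 is the limiting step, which heme itself restrains. Heme oxygenase opens the ring to biliverdin, iron and carbon monoxide, biliverdin reductase makes bilirubin, and hepatocytes conjugate and excrete it. Free hemoglobin and heme in plasma are bound by haptoglobin and hemopexin, both secreted by hepatocytes, and taken up through CD163 on macrophages and through LRP1.

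The scavenger proteins of plasma had the largest differences of the 9 genes. Hp stood about 4-fold and Hpx about 3.4-fold higher in the knockout livers, while the enzymes of synthesis and breakdown differed by less than 1.6-fold and the receptor Cd163 by 1.07-fold. None of the 9 members passed a q under 0.05 in the authors' deposited table, where 124 of the 11515 tested genes (1.08%) passed, 0.573% of the tested genes being higher and 0.504% lower in the knockout group. An unadjusted p under 0.05 was reached by 3 members, Hp and Hpx higher and Alas1 lower, against 609 tested genes (5.29%) in the same table, 2.82% of the tested genes being higher and 2.47% lower. The median log2 ratio of knockout over wildtype was 0.10 over the members, with 5 above 0 and 4 below, and 0.00 (-0.0012) over all tested genes. In what follows "rose" and "fell" are used only of genes with a q under 0.05, ratios are log2 of knockout over wildtype, and the error is the standard error implied by the authors' z statistic, which does not measure an observed spread between mice. In whole liver, fewer cells of a type and less RNA per cell cannot be told apart.

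**Figure D1:**
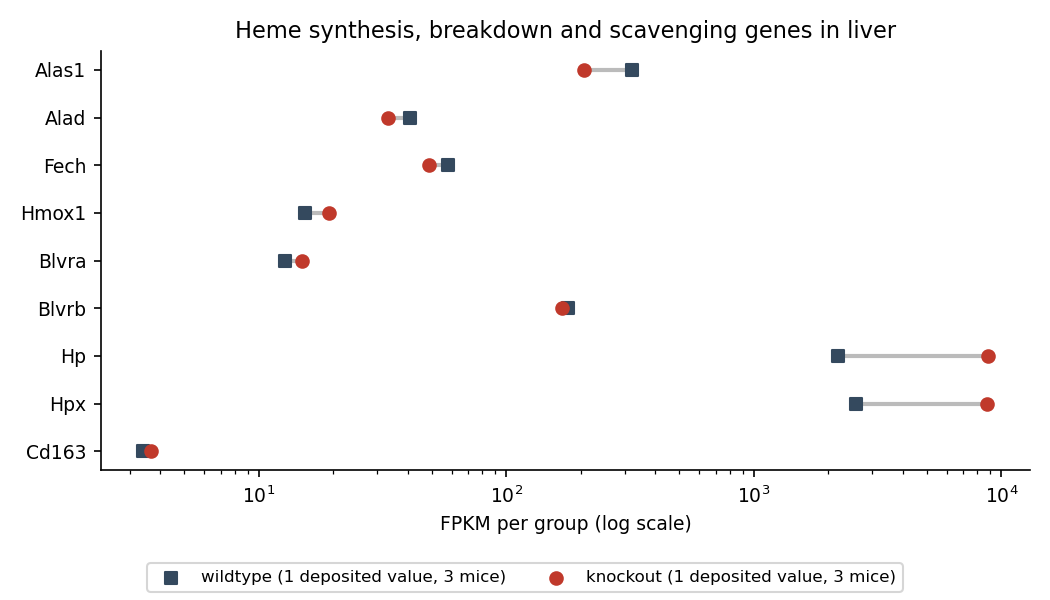
Deposited FPKM of the 9 genes on a log axis, 1 value for the knockout group (circles) and 1 for the wildtype group (squares), joined by a grey line. Hp and Hpx lie highest in both groups, at 2177 FPKM or more, and have the longest lines, and Cd163 lies lowest at 3.66 and 3.41 FPKM.

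Hp encodes haptoglobin, the plasma protein that binds free hemoglobin. The gene lies on chromosome 8 at 109575128 to 109579172 (mm10). Its level was 8785 FPKM in knockout livers and 2177 FPKM in wildtype livers. This placed Hp 9th of the tested genes by level in the knockout livers and 27th in the wildtype livers. The log2 ratio was 2.01 ± 0.73 (SE) with a 95% interval from 0.59 to 3.44, a 4.04-fold difference, and it was not called (p = 0.00572, with a q of 0.268 in the authors' deposited table).

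Hpx encodes hemopexin, which binds free heme with high affinity. The gene lies on chromosome 7 at 105591611 to 105600116. Its level was 8746 FPKM in knockout livers and 2588 FPKM in wildtype livers, 10th and 21st of the tested genes. The log2 ratio was 1.76 ± 0.74 (SE) with a 95% interval from 0.31 to 3.20, a 3.38-fold difference. It was not called either (p = 0.0172, with a q of 0.559 in the authors' deposited table).

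The pair stood at nearly the same level in each group. Hp was at 1.00 times the Hpx level in the knockout livers and at 0.841 times in the wildtype livers, on the FPKM scale. Summed, they made up 2.71% of all listed FPKM among knockout livers and 0.844% among wildtype livers, a sum that leaves out Alb and Apoe, which are listed at 0. The difference in their summed level, 17531 against 4765 FPKM, equals 15.7% of the difference between the groups' listed sums.

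The sequence upstream of Hpx is shown because Hpx is the member of this pair with an entry in the promoter table. That table matched 6 of the 9 members, and Hp, Hmox1 and Fech were not among them. The sequence covers chr7:105600138-105600366 on the minus strand, from RefSeq's GRCm38.p6 (the mm10 assembly), 5′ to 3′, and stops where the first exon of GENCODE vM21 begins, 21 bases short of the start site of the deposited table, which lies inside that exon.
Hpx upstream: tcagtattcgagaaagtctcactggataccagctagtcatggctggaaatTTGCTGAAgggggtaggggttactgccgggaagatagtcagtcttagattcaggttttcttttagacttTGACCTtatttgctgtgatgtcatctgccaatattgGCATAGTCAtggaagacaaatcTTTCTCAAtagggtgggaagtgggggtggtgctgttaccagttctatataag
Capitals mark matches to letter patterns searched on both strands in the 250 bases before the deposited start site, from which all distances are counted. The first and last capitals match the C/EBP pattern TTNNGNAA, and they begin 200 and 73 bases before the start. Between them lie a match to the REV-ERB half-site AGGTCA, 131 bases before the start, and one to the antioxidant response core TGACNNNGC, 95 bases before it. No marked match overlaps another. Of 32851 windows of the same length in the promoter table, 36.8% hold the C/EBP pattern, 14.0% the half-site and 10.2% the antioxidant core. The STAT3 pattern TTCNNNGAA (7.02% of windows) and the E-box CACGTG (6.02%) had no match in this window. Among the other members' windows at the deposited start site, Cd163 held the C/EBP pattern, Alad the E-box, Blvra the antioxidant core and Alas1 the STAT3 pattern, and Blvrb held none of the 5.

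The errors on Hp and Hpx were among the largest of the tested genes with a mean of at least 1000 FPKM. Among the 82 tested genes with a mean of at least 1000 FPKM the standard error of the log2 ratio ran from 0.227 to 0.806 with a median of 0.354, and Hpx and Hp had the 2nd and 3rd largest. The median was 0.236 over the 4406 tested genes between 10 and 1000 FPKM. Of the 54 tested genes with a log2 ratio at least that of Hpx, 27 were called in the authors' deposited table.

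**Figure D2:**
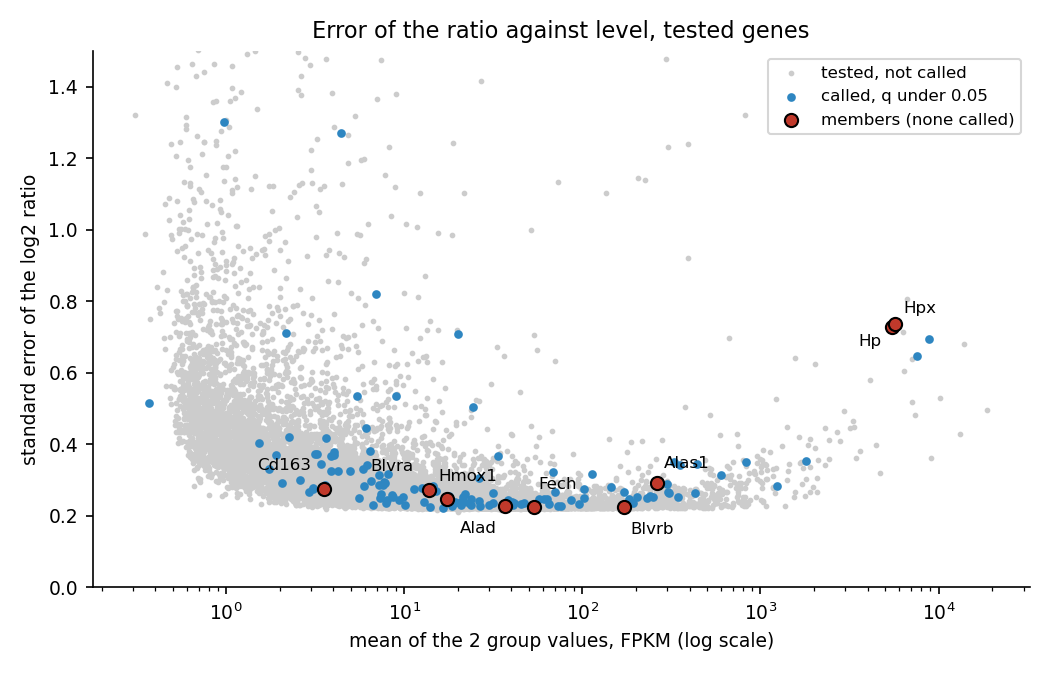
Standard error of the log2 ratio against the mean of the 2 group values in FPKM (log axis) for tested genes, with the 9 members in red and called genes in blue; 198 genes with an error of 1.5 or more lie above the axis. Hp and Hpx sit at the upper right with errors of 0.73 and 0.74, and the other 7 members lie between 0.22 and 0.29.

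Both scavengers are acute phase proteins, which hepatocytes secrete more of in inflammation, and they were set among 26 genes of that class. Of these 13 rose, 0 fell and 13 were not called, with a median ratio of 1.49 against 0.00 over all tested genes. By ratio Hp and Hpx ranked 10th and 11th of the 26, and by level in the knockout livers they ranked 3rd and 4th. By error they ranked 2nd and 1st. The next gene by ratio, the alpha-1-acid glycoprotein Orm1, rose from 827 to 2767 FPKM with nearly the same ratio as Hpx, 1.74 ± 0.35 (SE), and was called at q = 0.000191 in the authors' deposited table. The 3 fibrinogen chains were not called, with ratios of 1.35 for Fgb, 1.26 for Fga and 1.26 for Fgg. The 9 genes above Hp all rose, led by the serum amyloid genes Saa2 (7.66 ± 0.69) and Saa1 (6.47 ± 0.65), the siderophore-binding protein Lcn2 (6.39 ± 0.35) and the glycoprotein Orm2 (6.09 ± 0.34), and they included the metallothioneins Mt2 (3.99 ± 0.32) and Mt1 (2.87 ± 0.27) and the amyloid gene Saa3 (3.32 ± 0.32). The reads of the Saa, Orm and metallothionein copies may not be separable, since the sources used here do not give the handling of shared reads.

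**Figure D3:**
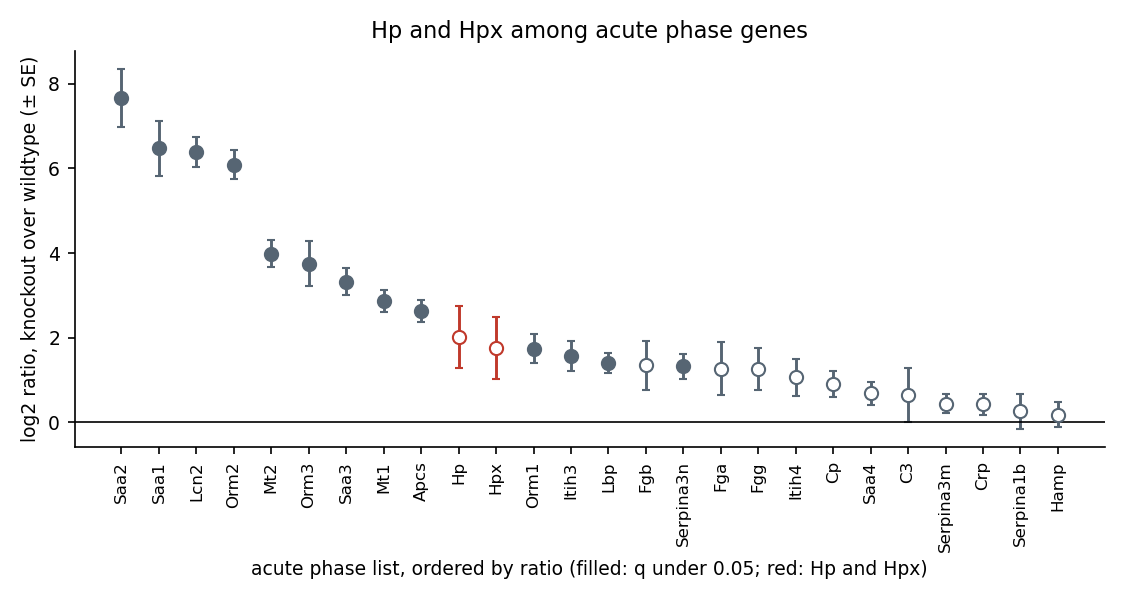
Log2 ratio of knockout over wildtype with its standard error for 26 acute phase genes in order of ratio, Hp and Hpx in red and filled points called at q under 0.05. Hp (2.01) and Hpx (1.76) lie open between Apcs and Orm1, both filled.

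Neutrophils also make haptoglobin, and their markers were higher in the same livers. Of 12 neutrophil markers found 10 were tested, 4 rose and 0 fell. The summed level of the tested markers was 110 FPKM in knockout livers and 6.37 FPKM in wildtype livers. Most of both sums came from S100a8 (38.4 and 1.89 FPKM) and S100a9 (46.0 and 2.86 FPKM), which rose. Ngp and Ltf also rose, and were near the floor in wildtype livers, at 0.0928 and 0.0158 FPKM. Of the 12 markers 0 were listed at 0 in both groups. The Hp level itself was 8785 and 2177 FPKM. The part of these cells in the Hp result was not tested.

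Cd163, the macrophage receptor for haptoglobin bound to hemoglobin (chromosome 6, 124304651 to 124330527), was the lowest of the 9 genes. Its level was 3.66 FPKM in knockout livers and 3.41 FPKM in wildtype livers. The log2 ratio of 0.10 ± 0.28 (SE), with a 95% interval from -0.44 to 0.64, was smaller than its error, and it was -0.09 with the listed sums of the groups made equal. Most other macrophage markers had higher levels in the knockout livers. Of 16 Kupffer cell and macrophage markers, 15 had ratios above 0, 2 rose and 0 fell, with a median of 0.49. Their sum was 632 against 428 FPKM. The ratios of Slc40a1 (0.19), Cd68 (0.18), Fcna (0.08) and Timd4 (0.02) were below 0.195, the amount by which equal listed sums lowered every finite ratio. The 2 that rose were Marco, a scavenger receptor, at 5.96 against 2.52 FPKM, and C1qa, a complement component, at 96.4 against 55.7 FPKM. With the listed sums made equal their recomputed q, adjusted by Benjamini-Hochberg over all tested genes, was 0.0717 for Marco and 0.253 for C1qa, and quantile normalization gave 0.0580 for C1qa. Whether the ratio of Cd163 differs from theirs was not tested.

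The remaining proteins of the scavenging list were not called. Lrp1, the receptor that takes up hemopexin with its heme, was at 65.2 FPKM in knockout livers and 56.4 FPKM in wildtype livers. Ambp, the precursor of the heme-binding alpha-1-microglobulin, was at 4024 and 2680 FPKM (log2 ratio 0.59 ± 0.45). Albumin, which also carries heme, is listed at 0 in both groups and has no value here. The 5 tested genes of this list, Hp and Hpx among them, all had ratios above 0, and 0 were called. Over all tested genes 5712 ratios were above 0 and 5744 below. With the listed sums made equal, the ratio of Cd163 was -0.09.

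Alas1, the first and limiting enzyme of hepatic heme synthesis, had the largest difference among the 9 synthesis enzymes. It lies on chromosome 9 at 106233455 to 106247954. Its level was 205.6 FPKM in knockout livers and 320.4 FPKM in wildtype livers. The log2 ratio was -0.64 ± 0.29 (SE) with a 95% interval from -1.21 to -0.07, which is 1.56-fold lower, and it was not called (p = 0.0283, with a q of 0.728 in the authors' deposited table). Of the finite ratios among tested genes, 258 were lower still.

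Alad, which joins 2 molecules of aminolevulinate into porphobilinogen (chromosome 4, 62505984 to 62520063), was at 33.2 FPKM in knockout livers and 40.8 FPKM in wildtype livers. Its ratio was -0.30 ± 0.23 (SE). Fech, the ferrochelatase that inserts iron in the last step (chromosome 18, 64456550 to 64489066), was at 48.9 and 57.8 FPKM, with a ratio of -0.24 ± 0.22 (SE). Both were lower in the knockout group by about their error, and their 95% intervals ran from -0.74 to 0.15 and from -0.68 to 0.20.

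Across the whole pathway of 9 synthesis enzymes 0 were called, 5 ratios were below 0 and 4 above, and the median was -0.03. The steps described between Alad and Fech lay on both sides of 0. Uros, which closes the ring, was at 10.7 FPKM in knockout livers and 8.37 FPKM in wildtype livers. Urod, a decarboxylase, was at 102.6 and 90.5 FPKM, Cpox, the oxidase after it, at 37.4 and 44.8 FPKM, and Ppox, which makes protoporphyrin, at 10.4 and 9.80 FPKM. Alas2, the erythroid form of the first enzyme, was at 74.2 and 71.3 FPKM. Alas1 was therefore 2.77 times the level of Alas2 in the knockout livers and 4.49 times in the wildtype livers.

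Of 19 genes of heme and porphyrin transport and mitochondrial iron supply 18 were tested and 0 called, with a median of -0.08 and 12 ratios below 0. The smallest p belonged to Slc25a37, mitoferrin 1, which carries iron into mitochondria, at 9.32 FPKM in knockout livers and 13.3 FPKM in wildtype livers (log2 ratio -0.51 ± 0.23, with a q of 0.690 in the authors' deposited table).

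Hmox1, the inducible heme oxygenase (chromosome 8, 75093618 to 75100593), was at 19.2 FPKM in knockout livers and 15.4 FPKM in wildtype livers. Its ratio was 0.32 ± 0.25 (SE), with a 95% interval from -0.16 to 0.80, and q was 0.9998 in the authors' deposited table. Hmox2, the constitutive form, was the more abundant at 46.6 and 39.0 FPKM, which is 2.43 and 2.53 times the level of Hmox1. A difference of Hmox1 above 1.74-fold lies outside the interval.

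The biliverdin reductases lay on opposite sides of 0, both within their errors. Blvra, which makes the bilirubin of adult bile (chromosome 2, 127070657 to 127097084), was at 14.9 FPKM in knockout livers and 12.7 FPKM in wildtype livers, with a ratio of 0.23 ± 0.27 (SE). Blvrb, a flavin reductase that acts on other biliverdin isomers (chromosome 7, 27447978 to 27465981), was at 167.0 and 177.6 FPKM, with a ratio of -0.09 ± 0.22 (SE). Their 95% intervals ran from -0.30 to 0.76 and from -0.53 to 0.35. Blvrb exceeded Blvra 11.2-fold in the knockout livers and 14.0-fold in the wildtype livers on the FPKM scale.

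Around these enzymes, 2 of 13 tested genes of heme breakdown and bilirubin handling fell, 0 rose and 11 were not called. The median was -0.28, and 10 ratios were below 0. Por, the reductase that gives electrons to heme oxygenase and to microsomal P450s, fell from 312.5 to 167.1 FPKM (log2 ratio -0.90 ± 0.25, with a q of 0.0401 in the authors' deposited table). Slco1a4, a sinusoidal carrier of organic anions, fell from 24.8 to 10.5 FPKM (-1.24 ± 0.24, with a q of 7.71e-05 in the authors' deposited table).

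The other genes of bilirubin handling were not called. Ugt1a1, which conjugates bilirubin, was at 152.5 FPKM in knockout livers and 221.9 FPKM in wildtype livers, a ratio of -0.54 ± 0.41 (SE). It shares exons with the other Ugt1a genes. Abcc2, which pumps the conjugate into bile, was at 62.2 and 70.8 FPKM, and Abcc3, which exports it to blood, at 48.0 and 72.7 FPKM (-0.60 ± 0.24, with a q of 0.445 in the authors' deposited table). The uptake carriers Slco1b2 and Slco1a1 were at 190.2 against 219.9 and at 80.3 against 97.6 FPKM, knockout first. Gsta2 and Gsta1 are glutathione transferases of a family that binds bilirubin in the cell. They were at 4.09 against 9.34 and at 0.293 against 0.769 FPKM, knockout first. The ratio of Gsta2 was -1.19 ± 0.38 (SE), with a q of 0.102 in the authors' deposited table. Reads of these close copies may not be separable.

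**Figure D4:**
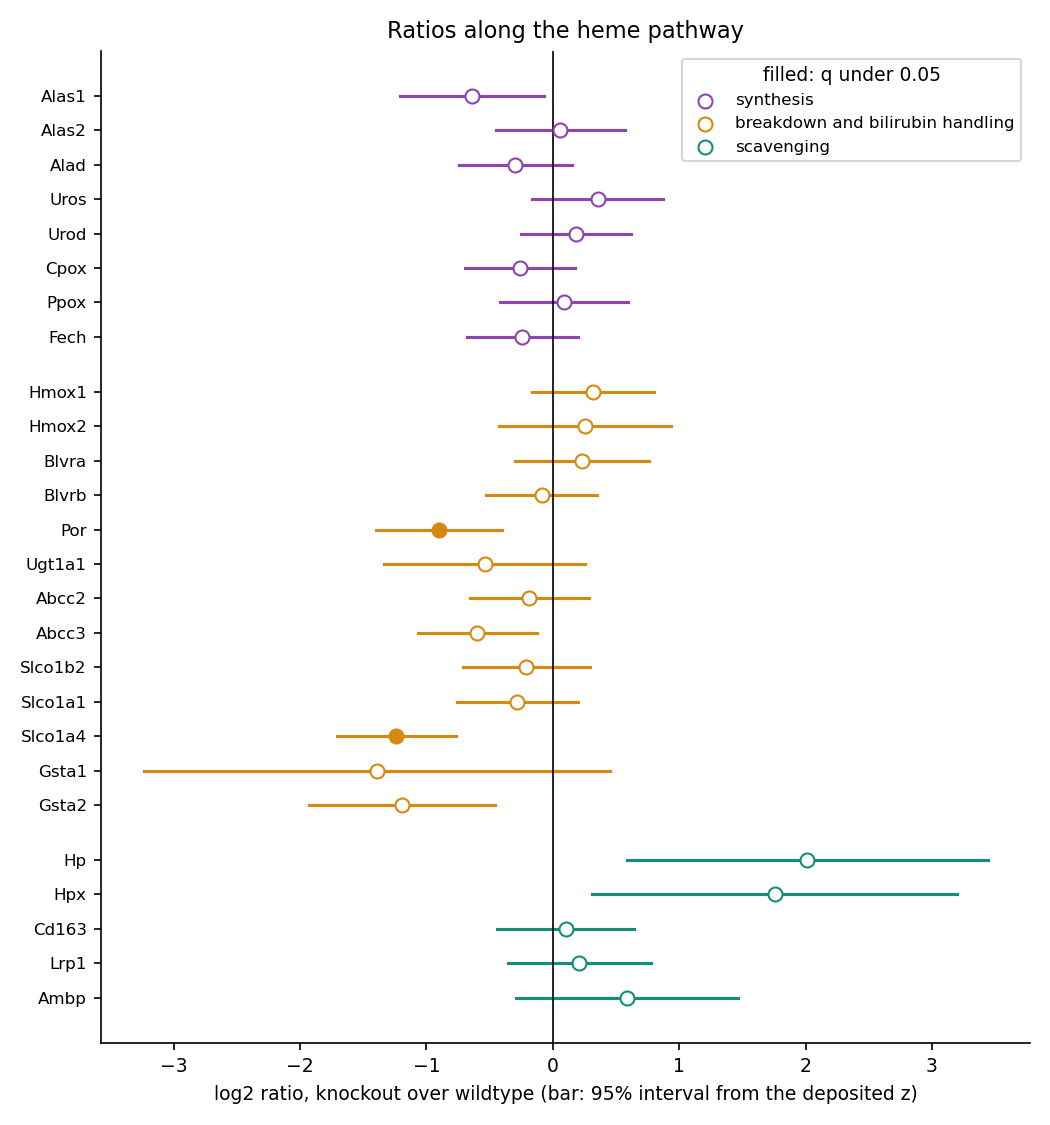
Log2 ratio of knockout over wildtype with its 95% interval for tested genes of synthesis (purple), breakdown and bilirubin handling (orange) and scavenging (green); filled points have a q under 0.05. Por (-0.90) and Slco1a4 (-1.24) are the filled points, and Hp and Hpx lie farthest to the right with the widest intervals of the scavenging group.

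Of 16 regulators of Alas1 and Hmox1, 1 rose, 0 fell and 15 were not called, with a median of -0.12. The gene that rose was Nr1d1, which encodes REV-ERB alpha, a heme-binding repressor of the circadian clock, from 19.2 to 41.0 FPKM (log2 ratio 1.10 ± 0.23, with a q of 0.000429 in the authors' deposited table).

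Of 37 heme-binding proteins, mostly P450s, 1 rose, 4 fell and 32 were not called, with a median of -0.15 and 26 ratios below 0. Nr1d1 was the one that rose. The fatty acid hydroxylases Cyp4a14 and Cyp4a10 fell by 2.27 and by 1.78 on the log2 scale, Cyp7a1, the limiting enzyme of bile acid synthesis, fell from 28.6 to 14.0 FPKM, and Cyp2a5, a coumarin hydroxylase, fell from 462.0 to 229.0 FPKM. Reads of Cyp2a5 and of the Cyp4a genes may be shared with close copies.

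The tissue label was checked because the design text speaks of intestine. Over 14 hepatocyte markers the median level was 970 FPKM in knockout livers and 1199 FPKM in wildtype livers, with Alb at 0, and that of 13 intestinal epithelium markers was 0.267 and 0.178 FPKM. Read totals are unknown. The sum of all listed FPKM was 646306 for knockout livers and 564749 for wildtype livers, and scaling both to the same sum lowered every finite ratio by 0.195. The 66 genes higher and 58 lower of the authors' deposited table then became 49 and 140, and 0 of the 9 members were among them.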

How the data were processed

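Liver RNA of 6 samples was sequenced from 1 ug of input as single reads of 50 nt, per the labels. The submitters' processing notes list Bowtie2, without version, and mm10; the program behind the table was not given in the sources used here. The values deposited by the authors, 1 per group over its 3 samples per the file headers, were taken as FPKM because the layout is that of a Cuffdiff table; the header names no unit. The authors' test statistic was used as a z score, since it gives back the deposited p-value to within 2.63e-06, and the authors' q-value equals the Benjamini-Hochberg adjustment over 11515 tested genes to within 1.99e-06. Log2 ratios were computed from the 2 values and matched the deposited log2 column, with its sign turned, to within 1.29e-05. The standard error is the ratio divided by z, and intervals are at 95%. No value per mouse was used, so no test over mice was made and the p-values rest on the authors' model. No source says that samples with different numbers are separate mice beyond their names, and no counting interval can be given.

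The members and gene lists were chosen with earlier results of these data known. All 9 members are described, with up to 6 called genes of each pathway list, or the one with the smallest p, and the genes of the synthesis, breakdown and scavenging lists, except that single values of some listed genes are not reported here; the fibrinogen chains and Orm1 were named after their values were seen. Of 201 listed genes 198 were found, 6 under older symbols. Starts are those of the table plus 1. The recomputed tests were tested on simulated data. Python 3.11.15, pandas 2.3.3 and scipy 1.17.1 were used. Alternatives were other scalings, thresholds, a filter of 1 FPKM, and pseudocounts of 1 and 0.5.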

Additional observations from a re-analysis of the deposited data

How the results depend on the processing

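At q under 0.05, 0.10 or 0.01, after each other scaling and with the filter on low values, 0 of the 9 members were called in either direction. At an unadjusted p under 0.05, members called were 2 higher (Hp and Hpx) and 1 lower (Alas1). The same threshold gave 1 lower synthesis enzyme, 1 lower transport gene, 4 lower genes of breakdown and bilirubin handling and 2 higher scavenging genes. It gave 2 higher and 5 lower heme-binding proteins, and 2 higher and 3 lower NRF2 and BACH1 targets. Acute phase genes were 21 higher, and all tested genes 325 higher and 284 lower. At q under 0.01 there were 1 lower gene of breakdown, 1 lower NRF2 and BACH1 target, and 47 higher and 32 lower genes in all. Scaling to the same sum gave 49 higher and 140 lower genes in all. It also gave 3 lower genes of breakdown and bilirubin handling and 3 lower NRF2 and BACH1 targets. Fewer or more genes pass a moved threshold by construction; for the scaling, all ratios shift. The ratio of Hp ran from 1.56 to 2.01 and its q from 0.252 to 0.769, that of Hpx from 1.19 to 1.76 with q from 0.489 to 1, and that of Alas1 from -0.83 to -0.64 with q from 0.166 to 0.733. The lowest values of Hp and Hpx came from quantile normalization, where the p of Hpx was 0.105. Of the members' ratios only that of Cd163 reversed, to -0.0925 when both groups were set to the same sum. Leaving out a mouse could not be run, since each group has 1 value. No paired analysis was possible because the sample numbers of the groups differ and no value per mouse was used. Depth is unknown. The smallest absolute log2 ratio called at q under 0.05 was 0.78, which describes the calls made and is no limit of detection, since a call depends on each gene's error.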

Other observations

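Targets that NRF2 and BACH1 share with Hmox1 lay on both sides of 0. Of 15 tested members of a list of 16, which leaves Hmox1 out, 2 fell, 0 rose and 13 were not called, with a median of -0.06. Me1, malic enzyme, fell from 86.3 to 43.9 FPKM and Gstm3, a glutathione transferase, from 81.4 to 41.2 FPKM. Both also belong to other pathways, lipogenesis and drug conjugation. Of the 15 ratios 9 were below 0 and 6 above. Osgin1, an oxidative stress gene chosen after its value was seen, was at 99.9 FPKM in knockout livers and 65.2 FPKM in wildtype livers. Its log2 ratio was 0.62 ± 0.23, with a q of 0.346 in the authors' deposited table. Gsta4, another glutathione transferase and also chosen after its value was seen, was at 47.1 against 79.9 FPKM, knockout first. Its log2 ratio was -0.76 ± 0.23, with a q of 0.0716 in the authors' deposited table. The ferritin chains Ftl1 and Fth1, which store the iron that heme oxygenase frees and were chosen after their values were seen, were at 4166 against 4724 and at 1692 against 1898 FPKM, knockout first.

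Alas2 stood well above some other erythroid genes in these livers. It was at 74.2 FPKM in knockout livers and 71.3 FPKM in wildtype livers. The membrane protein Slc4a1 was at 0.201 FPKM in knockout livers and 0.0199 FPKM in wildtype livers, and Gata1 is listed at 0 in both. Neither Slc4a1 nor Gata1 was tested by the authors. Of 14 red cell markers found, 7 were tested and 0 called. The globin Hbb-b1 was at 137.7 against 79.4 FPKM, knockout first, with a log2 ratio of 0.80 ± 0.25 (q = 0.0885 in the authors' deposited table). That of Alas2 was 0.06 ± 0.26. The globins Hba-a2 and Hbb-bt had ratios of 0.89 ± 0.31 and 1.00 ± 0.30, with q of 0.201 and 0.0653 in the authors' deposited table. Hbb-bs had one of 0.10 ± 1.66. Hba-a1 was at 0.00231 against 1.75 FPKM, with a log2 ratio of -9.57 ± 99.3, so its direction cannot be read. Reads of these close copies may not be separable. The difference between the ratios of Hbb-b1 and Alas2 was not tested. These genes were singled out after their values were seen.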
